A study of Mus musculus with 4 samples.

Results

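The Hox genes were followed here as a family of 39 annotated mouse genes, taken by symbol as every member of the HoxA, HoxB, HoxC and HoxD clusters. Of these, 37 are described here from the 39179 genes of the count tables, Hoxd4 was not analysed here, and 9 of the 37 passed the count filter that left 15822 genes for testing. RNA was sequenced from 4 chimeric mouse embryos staged at E7.75, 2 labelled FLAG-Lhx1 and 2 labelled FLAG-Lhx1-mt. Each embryo was built by injecting embryonic stem cells, grown in 2i medium, into 8-cell hosts of an ARC x RLZRFP cross, so host cells remain beside the descendants of the injected cells. The 2 groups differ in the form of Lhx1 carried by the injected cells; the labels write the mt form also with a Δ and do not say what it alters. All recipient females drank 2 mg/mL doxycycline with 5% sucrose for 24 hours before collection at E8.5, and the embryos lagged by about a day. No embryo without doxycycline was analysed here, and both groups carry a FLAG-tagged construct. Each library is 1 whole embryo, so fewer cells that express a gene and less RNA per cell cannot be told apart.

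Hox genes encode homeodomain transcription factors that give cells their position along the body axis. Within a cluster the genes lie in paralog order, and the ones at the 3' end (low numbers) are switched on earlier and further forward than those at the 5' end (high numbers). The opening of the clusters begins in the late primitive streak of the gastrula, where WNT signals and CDX proteins act on them, and retinoic acid made in the mesoderm acts on the 3' genes, Hoxb1 among them. Paralogs 1 to 3 are called anterior below, 4 to 8 central and 9 to 13 posterior.

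Lhx1, the induced gene, was read at 128.6 and 114.1 CPM (counts normalized to library size, scaled by TMM) in FLAG-Lhx1 and at 126.0 and 98.5 CPM in FLAG-Lhx1-mt. The groups overlapped, with a log2 difference of 0.11 ± 0.16 (SE) and an adjusted p of 0.733 by edgeR. Reads of the host's gene and of either construct cannot be told apart in these counts, so this does not check the labels. Total counts ran from 21267116 to 30434442 per embryo, and 3 counts corresponded to 0.0959 to 0.153 CPM, which covers counting error only. The libraries carry no molecular identifiers. Over all tested genes, 976 (6.17%) differed at an adjusted p under 0.05 by edgeR's quasi-likelihood test, 415 (2.62%) higher and 561 (3.55%) lower in FLAG-Lhx1.

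Promoters are shown for the 3 tested Hox genes described here whose FLAG-Lhx1 embryos both lay above both FLAG-Lhx1-mt embryos, so that the letters stand beside the values that follow. RefSeq promoters on GRCm38.p6 matched 22 of the 39 Hox genes by symbol, and the lines give the 250 bases before the start of transcription, 5′ to 3′ on the gene's own strand. Hoxb1 lies at chr11:96365508-96365757 on the plus strand, Hoxa2 at chr6:52164832-52165081 on the minus strand and Hoxd1 at chr2:74762730-74762979 on the plus strand. Capitals mark matches to TGATNNAT, the element of a PBX-HOX pair, or to TGACAG, the element of MEIS and PKNOX proteins, on either strand.
Hoxb1: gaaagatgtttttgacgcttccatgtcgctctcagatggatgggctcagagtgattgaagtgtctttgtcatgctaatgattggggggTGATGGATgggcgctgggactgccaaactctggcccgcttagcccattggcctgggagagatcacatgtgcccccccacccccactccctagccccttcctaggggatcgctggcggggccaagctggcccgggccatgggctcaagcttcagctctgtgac
Hoxa2: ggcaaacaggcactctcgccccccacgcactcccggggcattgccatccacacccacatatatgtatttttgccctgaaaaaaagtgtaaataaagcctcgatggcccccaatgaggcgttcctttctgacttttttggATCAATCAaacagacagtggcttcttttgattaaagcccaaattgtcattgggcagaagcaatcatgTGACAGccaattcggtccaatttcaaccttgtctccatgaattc
Hoxd1: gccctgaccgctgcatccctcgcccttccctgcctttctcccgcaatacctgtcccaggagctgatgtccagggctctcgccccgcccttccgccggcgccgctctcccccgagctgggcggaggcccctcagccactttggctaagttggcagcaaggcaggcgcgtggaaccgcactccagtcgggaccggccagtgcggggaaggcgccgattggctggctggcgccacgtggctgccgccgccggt

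Hoxb1 held 1 match to the PBX-HOX letters, TGATGGAT, on its own strand 162 bases before the start. Hoxa2 held ATCAATCA, the same element read on the other strand, 111 bases before its start, and TGACAG 44 bases before it. Hoxd1 held neither in this window. Over 300-base windows (250 before to 50 after the start), the PBX-HOX letters were in 4 of 24 Hox promoters (16.7%) and in 8.85% of 32851 promoters of all genes, and TGACAG in 2 of 24 (8.33%) and 19.2%. AGGTCA, the element of nuclear receptors such as those for retinoic acid, was in 7 of 24 (29.2%) and 16.3%, and none of those 7 was one of the 3 promoters printed. TAATTA, the homeodomain core, was in 2 of 24 (8.33%) and 5.29%, and TTTATGG, the CDX element, was in 1 of 24 (4.17%) and 2.75%. None of these motifs contains another. Matches on both strands were counted, and a match is a description of the letters alone.

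Hox transcripts were scarce in these embryos, and Hoxb1 gave the largest share of those described here. The 37 genes together took 785 and 901 counts in FLAG-Lhx1 and 564 and 383 in FLAG-Lhx1-mt. That is 29.96 and 45.8 CPM against 24.2 and 12.2 CPM, so both FLAG-Lhx1 embryos lay above both FLAG-Lhx1-mt embryos and the ratio of the means was 2.08. The 7 anterior paralogs made up most of it, with sums of 25.1 and 38.3 CPM against 19.5 and 6.42 CPM, a ratio of 2.44. Its log2 value of 1.29 became 2.30 when FLAG-Lhx1-mt replicate 1 was omitted and 0.70 when FLAG-Lhx1-mt replicate 2 was omitted. Central paralogs summed to 1.95 and 3.61 CPM against 0.816 and 2.24 CPM, where the groups overlap; the log2 ratio of 0.86 became 1.77 when FLAG-Lhx1-mt replicate 2 was omitted. Posterior paralogs summed to 2.86 and 3.97 CPM against 3.87 and 3.58 CPM, again with overlap and with a ratio of 0.918. Leaving out FLAG-Lhx1 replicate 1 turned the sign of the posterior ratio, from a log2 value of -0.12 to 0.09.

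**Figure D1:**
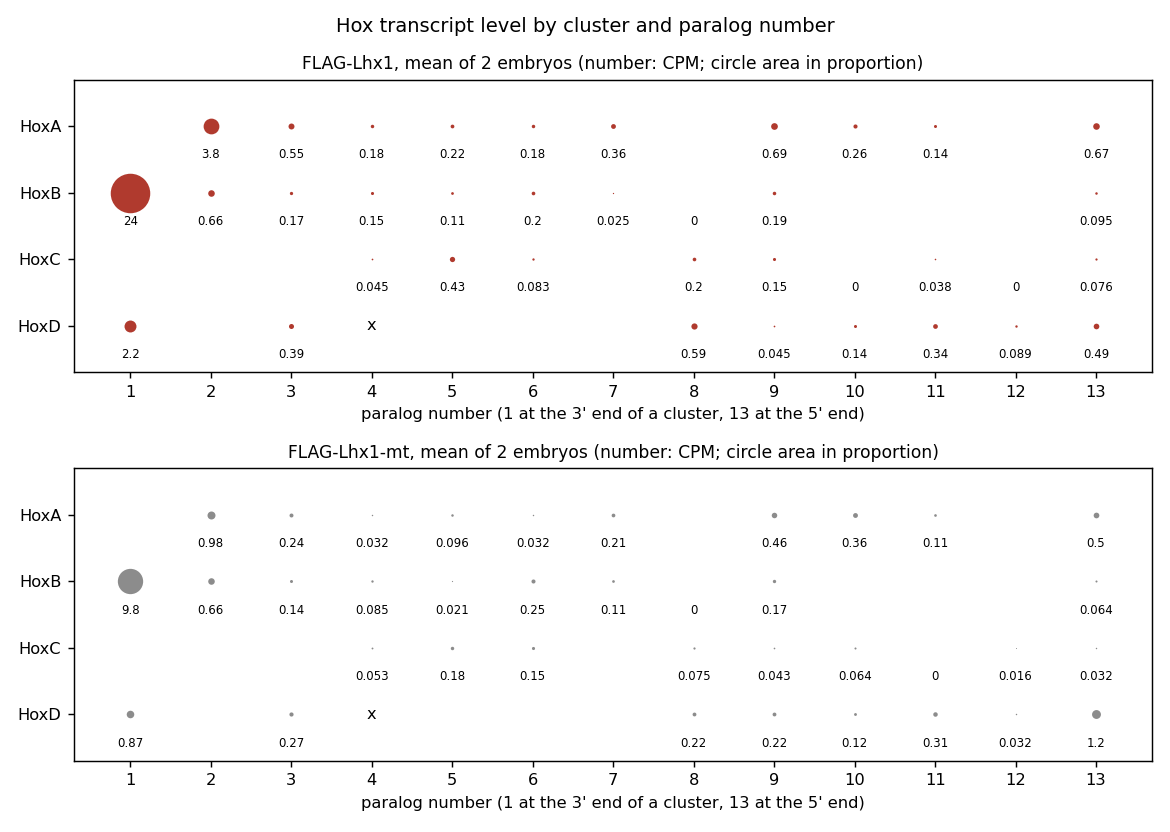
Mean CPM of each Hox gene by cluster (rows) and paralog number (horizontal axis), FLAG-Lhx1 above and FLAG-Lhx1-mt below; circle area is in proportion to the mean of 2 embryos, the number under it is that mean, x marks Hoxd4, not analysed here, and a position with no number is not plotted. Hoxb1 carries the large circle in both groups, and every gene from paralog 4 to 13 stays at or under 1.21 CPM.

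By cluster, the 10 HoxA genes described here, on chromosome 6 (minus strand, 52162417 to 52260880 of GRCm38), summed to 4.81 and 9.31 CPM in FLAG-Lhx1 and to 2.15 and 3.90 CPM in FLAG-Lhx1-mt. HoxB, on chromosome 11 (plus strand, 96194316 to 96368256), summed to 20.9 and 30.2 CPM against 18.7 and 3.93 CPM. In both of these clusters the FLAG-Lhx1 embryos were the higher 2, but in HoxB FLAG-Lhx1-mt replicate 1 came close to FLAG-Lhx1 replicate 1. The log2 ratio of HoxB was 1.17, and it was 2.70 or 0.45 when replicate 1 or replicate 2 of FLAG-Lhx1-mt was omitted. HoxD, on chromosome 2 (plus strand, 74668310 to 74765142), summed to 3.51 and 5.04 CPM against 2.79 and 3.74 CPM, and these overlapped. HoxC, on chromosome 15 (plus strand, 102921103 to 103036852), which has no paralog 1 to 3, was the quietest, at 0.763 and 1.27 CPM against 0.558 and 0.671 CPM. No HoxC gene passed the count filter, and its highest count in any embryo was 13, for Hoxc5.

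Along HoxB the counts dropped steeply from the 3' end. In FLAG-Lhx1 replicate 1, Hoxb1 had 511 counts, Hoxb2 had 16 and Hoxb3 had 6. Hoxb3os, an antisense RNA, shares 27.3% of the exon bases of Hoxb2 and 52.9% of those of Hoxb3, and had 117 counts in this embryo. How reads of shared bases were assigned is not known here, so the size of this drop is uncertain. In HoxA the same embryo had 65 counts for Hoxa2 and 6 for Hoxa3. Hoxb1 held 65.1% (Wilson 95% interval 61.7 to 68.3) and 61.9% (58.7 to 65.0) of the counts of the 37 genes in the FLAG-Lhx1 embryos. In FLAG-Lhx1-mt it held 67.9% (63.9 to 71.6) in replicate 1 and 26.1% (22.0 to 30.7) in replicate 2, so the last of these embryos stood apart. The posterior share was 9.55% and 8.66% against 16.0% and 29.2%, higher in both FLAG-Lhx1-mt embryos. With paralog groups 1 and 2 left out, the other 33 genes summed to 5.53 and 9.06 CPM against 5.11 and 6.68 CPM, which overlap.

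**Figure D2:**
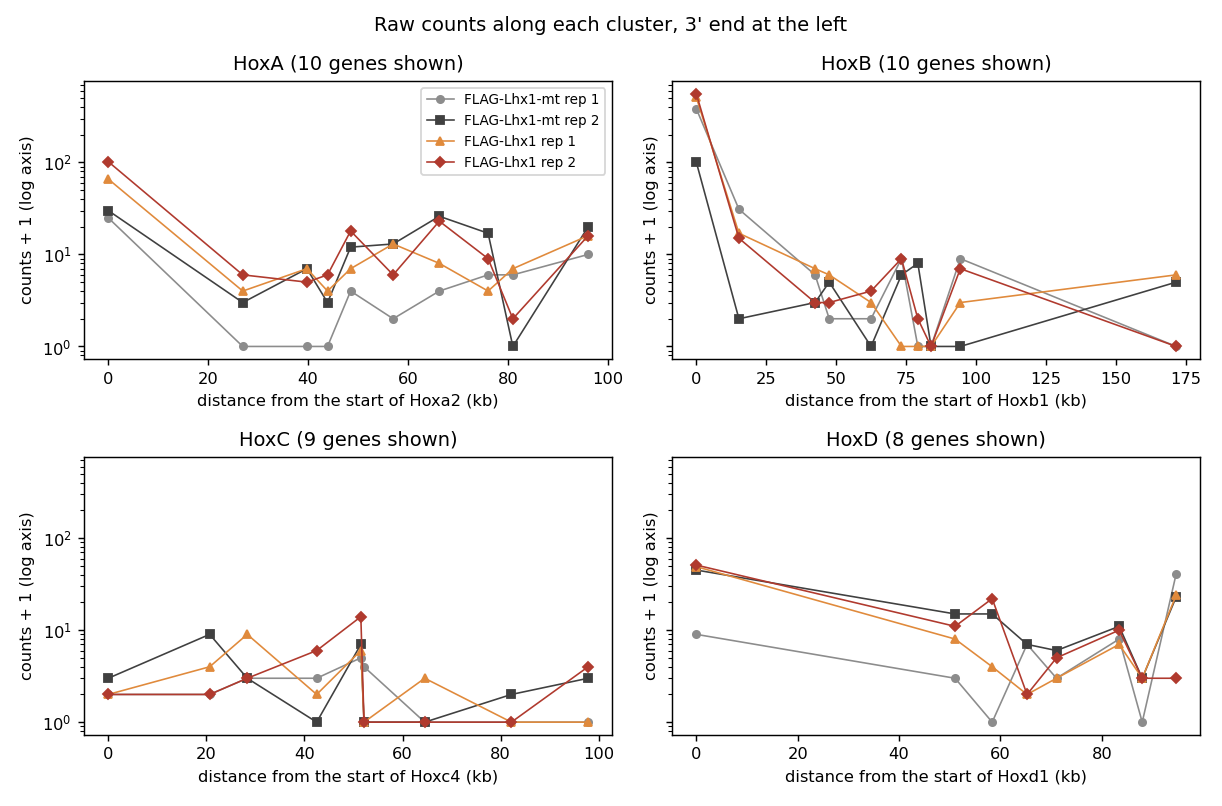
Raw counts plus 1 (log axis) of each Hox gene against the distance in kb from the start of the first gene shown of its cluster (3' end at the left), with 1 line per embryo. In HoxA and HoxB all 4 embryos start at their highest value and fall within the first genes, while HoxC stays at or under 13 counts and HoxD at or under 50.

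Among the 9 tested Hox genes described here, 1 (Hoxa2) was called higher in FLAG-Lhx1, beside 2.62% of all tested genes. None was called lower by edgeR or limma-voom, beside 3.55% of all genes by edgeR, and none fell at an unadjusted edgeR p under 0.05. DESeq2 gave no adjusted p for Hoxb2, Hoxd3, Hoxd8, Hoxa9, Hoxa13 and Hoxd13, so it could call none of them. In 3 (Hoxb1, Hoxd1 and Hoxa2) both FLAG-Lhx1 embryos lay above both FLAG-Lhx1-mt embryos, which was so for 26.4% of all tested genes; in none did they lie below, which was so for 25.8%. The log2 difference was above 0 in 8 of the 9, with a median of 0.49, and the median over all tested genes was 0.01. The median of the 9 was -0.04 with the second FLAG-Lhx1 embryo omitted, 1.20 with the first omitted, and 1.87 with the second FLAG-Lhx1-mt embryo omitted. A gene can pass the filter through 1 group alone, so these counts describe the 9 and not the family.

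Hoxb1 (ENSMUSG00000018973, chromosome 11, 96365752 to 96368256), known for holding its own expression on in the hindbrain through PBX-HOX sites, was read at 19.5 and 28.4 CPM in FLAG-Lhx1 and at 16.4 and 3.20 CPM in FLAG-Lhx1-mt. The groups did not overlap, but FLAG-Lhx1-mt replicate 1 lay just below FLAG-Lhx1 replicate 1. FLAG-Lhx1-mt replicate 2 was the low embryo. The log2 difference of 1.30 ± 0.46 did not pass edgeR's test (adjusted p = 0.110). It was 0.54 without FLAG-Lhx1-mt replicate 2, and 2.90 with the other embryo of that group omitted. It was called in the other 3 omissions, of either FLAG-Lhx1 embryo or of the higher FLAG-Lhx1-mt embryo, with no count filter, with the replicate block (adjusted p = 0.00763) and with limma-voom (adjusted p = 0.0211). It was not called with DESeq2, at 1.28 ± 1.06 and an adjusted p of 0.530.

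Hoxd1 (ENSMUSG00000042448, chromosome 2, 74762980 to 74765142), at the 3' end of HoxD, was a lower-level gene with 48 and 50 counts in FLAG-Lhx1 and 8 and 44 in FLAG-Lhx1-mt. In CPM these were 1.83 and 2.54 against 0.344 and 1.41, so the low embryo here was FLAG-Lhx1-mt replicate 1. The log2 difference was 1.27 ± 0.57, with an adjusted p of 0.214 by edgeR. It passed the test only when FLAG-Lhx1-mt replicate 2 was left out (2.64, adjusted p = 0.0315), among the 4 omissions.

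Hoxa2 (ENSMUSG00000014704, chromosome 6, 52162417 to 52164831), which patterns the hindbrain and the neural crest of the second arch, was read at 2.48 and 5.14 CPM in FLAG-Lhx1 and at 1.03 and 0.927 CPM in FLAG-Lhx1-mt. Here the FLAG-Lhx1-mt embryos were alike (0.979 ± 0.0736 CPM, SD, n = 2) and the FLAG-Lhx1 embryos were spread (3.81 ± 1.88 CPM). It rose by a log2 difference of 1.95 ± 0.46 (adjusted p = 0.0196 by edgeR), and DESeq2 called it too (adjusted p = 0.00725). Omitting replicate 2 of FLAG-Lhx1 ended the call (1.35, adjusted p = 0.274 by edgeR), as did omitting replicate 2 of FLAG-Lhx1-mt (1.87, adjusted p = 0.0537). A readthrough gene model, Gm28308, covers 15% of its exon bases in the annotation used here and has no row in the counts.

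**Figure D3:**
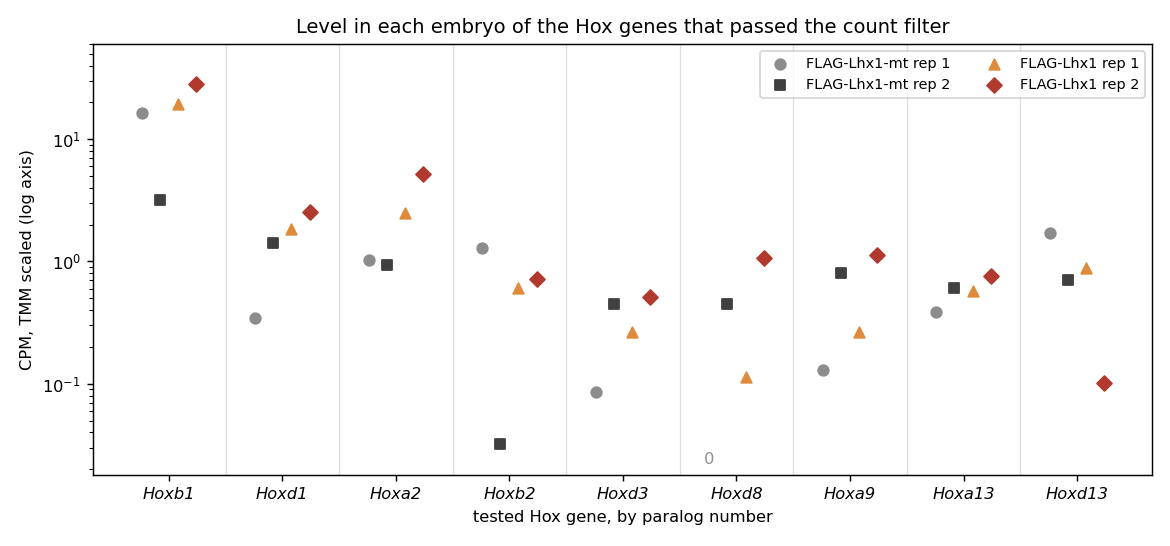
CPM (log axis) of the 9 Hox genes described here that passed the count filter, ordered by paralog number, with 1 symbol per embryo and a printed 0 where no read was counted. The 2 groups separate at Hoxb1, Hoxd1 and Hoxa2 and are mixed from Hoxb2 on.

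The 2 FLAG-Lhx1-mt embryos differed from each other in a gene-specific way. Replicate 1 had 5.15 times the Hoxb1 level of replicate 2 (exact 95% counting interval 4.12 to 6.48). Hoxa2 was at nearly the same level in both, with a ratio of 1.11 (0.620 to 1.98). Hoxd1 went the opposite way and was 4.09 times higher in replicate 2 (1.91 to 10.1), as was Hoxa9, at 6.2 times (1.89 to 32.1), from 25 and 3 counts. Hoxd1 therefore made up 2.05% (Wilson interval 1.04 to 3.98) of the counts of Hoxb1 and Hoxd1 together in FLAG-Lhx1-mt replicate 1 and 30.6% (23.6 to 38.5) in replicate 2. In the FLAG-Lhx1 embryos it made up 8.59% (6.54 to 11.2) and 8.22% (6.29 to 10.7), so this balance was alike in that group and lay between the 2 FLAG-Lhx1-mt embryos. Replicate 2 of FLAG-Lhx1 had 1.46 times the Hoxb1 level of replicate 1 (1.29 to 1.64) and 2.07 times its Hoxa2 level (1.5 to 2.87).

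Per exon length, in TPM (transcript levels normalized to the exon bases of each gene and to the library), Hoxb1 stood first in FLAG-Lhx1 at 18.4 ± 1.06 (SD, n = 2). Hoxa2 followed at 3.74 ± 1.13 TPM and Hoxd1 at 2.11 ± 0.0512 TPM. In FLAG-Lhx1-mt the levels were 8.59 ± 8.04 TPM for Hoxb1, 1.14 ± 0.0477 for Hoxa2 and 0.983 ± 0.865 for Hoxd1. The spread of Hoxb1 in that group is nearly as large as its mean, but both of its embryos (14.3 and 2.91 TPM) were above both values of Hoxa2 (1.17 and 1.10 TPM), while Hoxa2 and Hoxd1 overlapped. Hoxd13 reached 1.39 TPM in 1 embryo, and the other Hox genes described here were at or under 0.744 TPM in every embryo.

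The 6 tested Hox genes that remain gave no consistent order of the embryos. Hoxb2 had 16 and 14 counts in FLAG-Lhx1 and 30 and 1 in FLAG-Lhx1-mt, so its FLAG-Lhx1-mt embryos lay on both sides. Its log2 difference of 0.05 ± 0.93 became 4.17 without FLAG-Lhx1-mt replicate 1 and, with the other embryo of that group omitted, -0.96. Hoxd3 had 7 and 10 counts against 2 and 14, and 62.8% of its exon bases are shared with other genes, so its value is uncertain. Among those genes, Gm28230 and Hoxd4 have no row in the counts. Hoxd8, the only tested central gene, had 3 and 21 counts against 0 and 14, and its log2 difference of 1.24 ± 1.10 turned to -1.02 without FLAG-Lhx1 replicate 2. In Hoxd3 and Hoxd8 the replicate 2 embryo was the higher one in each group.

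The posterior genes that passed were Hoxa9, Hoxa13 and Hoxd13, whose products pattern the trunk, limbs and tail end later in development. Hoxa9 had 7 and 22 counts in FLAG-Lhx1 and 3 and 25 in FLAG-Lhx1-mt, with a log2 difference of 0.49 ± 0.85. Hoxa13 had 15 and 15 counts against 9 and 19, and 0.40 ± 0.68. Hoxd13 had 23 and 2 counts against 40 and 22 and was the 1 of the 9 with a log2 difference below 0, at -1.22 ± 0.76 (adjusted p = 0.388 by edgeR). The size depended on single embryos: it was -0.43 with FLAG-Lhx1 replicate 2 (2 counts) omitted, -0.45 with FLAG-Lhx1-mt replicate 1 (40 counts) omitted and -3.49 with FLAG-Lhx1 replicate 1 omitted. Leaving out 1 embryo also turned the sign of Hoxa9, to -0.82 (FLAG-Lhx1 replicate 2) and to -0.25 (FLAG-Lhx1-mt replicate 1).

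**Figure D4:**
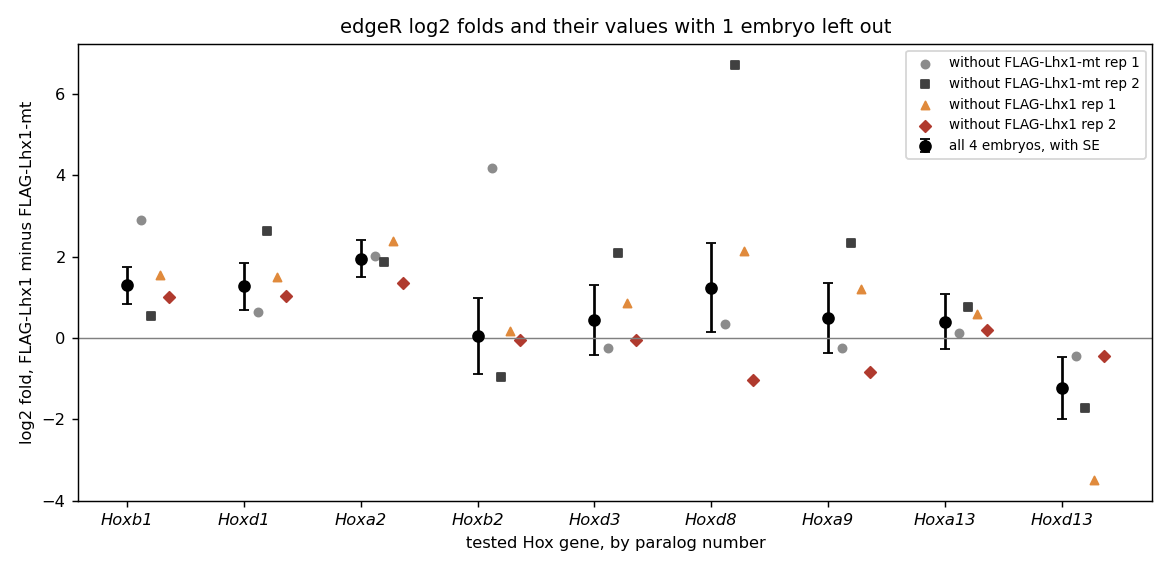
Log2 difference (FLAG-Lhx1 minus FLAG-Lhx1-mt) of the 9 tested Hox genes described here, by edgeR; black circles with bars are the estimate from all 4 embryos with its SE, and colored symbols are the estimate with 1 embryo left out. Hoxb1, Hoxd1, Hoxa2 and Hoxa13 stay above 0 in every case, Hoxd13 stays below, and the other 4 cross it; the 6.72 of Hoxd8 has a group at 0 counts and is no measure of size.

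The 28 members without a test had between 0 and 17 counts in any embryo and totals of 0 to 37 over the 4. Hoxb8 had no count in any of them, and 6 had a total of 5 or fewer. Among the anterior ones, Hoxa3 had 6 and 17 counts in FLAG-Lhx1 and 3 and 11 in FLAG-Lhx1-mt, and Hoxb3 had 6 and 2 against 5 and 2. Both show overlap between the groups, and 27.1% of the exon bases of Hoxa3 and 52.9% of those of Hoxb3 are shared with other genes. The counts are too few to show a difference at this depth.

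Among the central members, the HoxA genes had few counts in FLAG-Lhx1-mt replicate 1 in particular. Hoxa4 had 3 and 5 counts in FLAG-Lhx1 against 0 and 2, Hoxa5 had 6 and 4 against 0 and 6, Hoxa6 had 3 and 5 against 0 and 2, and Hoxa7 had 12 and 5 against 1 and 12. In HoxB, Hoxb4 had 5 and 2 counts against 1 and 4, Hoxb5 had 2 and 3 against 1 and 0, Hoxb6 had 0 and 8 against 8 and 5, and Hoxb7 had 0 and 1 against 0 and 7. In HoxC, Hoxc4 had 1 and 1 counts against 1 and 2, Hoxc5 had 5 and 13 against 4 and 6, Hoxc6 had 3 and 1 against 1 and 8, and Hoxc8 had 8 and 2 against 2 and 2. The highest of all these counts is 13, and none of these genes passed the filter.

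Among the posterior members, Hoxa10 had 3 and 8 counts in FLAG-Lhx1 against 5 and 16 in FLAG-Lhx1-mt, Hoxd11 had 6 and 9 against 7 and 10, and Hoxd10 had 2 and 4 against 2 and 5. Hoxb9 had 2 and 6 against 8 and 0, Hoxc9 had 1 and 5 against 2 and 0, and Hoxd9 had 1 and 1 against 6 and 6. Hoxa11 had 6 and 1 against 5 and 0, with 35.0% of its exon bases shared, Hoxb13 had 5 and 0 against 0 and 4, and Hoxc13 had 0 and 3 against 0 and 2. Hoxc10, Hoxc11, Hoxc12 and Hoxd12 had at most 3 counts in any embryo. In Hoxd9 both FLAG-Lhx1-mt embryos lay above both FLAG-Lhx1 embryos, on counts of 6 and below. The order in CPM was the reverse in Hoxd12 and, among the central members, in Hoxa4, Hoxa5, Hoxa6, Hoxb5 and Hoxc8, on counts of 8 and below. Over all tested genes, 25.8% lay lower and 26.4% higher in FLAG-Lhx1 without overlap. Counts this low cannot show a difference.

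Reads from noncoding genes in and beside the clusters were examined next. Of 46 other annotated genes inside the clusters, 39 had a row and 6 were tested, and 1 of these was called higher, beside 2.62% of all tested genes. This was Hoxb3os, an antisense RNA of HoxB. It had 117 and 123 counts in FLAG-Lhx1 and 32 and 35 in FLAG-Lhx1-mt, so the embryos of each group agreed closely and the groups were far apart. It rose by a log2 difference of 2.10 ± 0.38 (adjusted p = 0.00457 by edgeR), between 1.86 and 2.32 with any 1 embryo left out. Exons of Hoxb2 and Hoxb3 cover 76.2% of its exon bases on the other strand. No source used here gives the strand setting of the counting, so its value is uncertain. The groups overlapped in Hoxb2 and Hoxb3, but the counts of these genes cannot show which strand the reads of the shared bases came from. Hotairm1, an antisense RNA of HoxA, had 12 and 16 counts against 8 and 5 (1.34 ± 0.78, adjusted p = 0.349).

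Between HoxA and its nearest protein-coding gene on the 3' side lies Halr1, a long noncoding RNA (chromosome 6, 52102949 to 52113684) that ends 48.7 kb from Hoxa2. This stretch was added after values had been seen. Halr1 had 27 and 18 counts in FLAG-Lhx1 and 1 and 1 in FLAG-Lhx1-mt. The ratio of the summed counts, scaled for depth, was 26.8 (exact 95% counting interval 7.00 to 228). It rose in edgeR's test (adjusted p = 0.00976) and kept its call with any 1 embryo left out. DESeq2 gave no adjusted p for it.

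Of the 5 nearest protein-coding genes on each side of each cluster, 40 in all, 35 were tested and 1 was called, beside 6.17% of all tested genes. This was Cbx3, a heterochromatin protein gene on the 3' side of HoxA (chromosome 6, 51470360 to 51483704). It was at 470.2 and 485.0 CPM against 261.6 and 277.1 CPM (log2 difference 0.83 ± 0.14, adjusted p = 0.00319 by edgeR). The median log2 difference was 0.18 for the 19 tested on the 3' sides and -0.07 for the 16 on the 5' sides. Evx1, the homeobox gene that adjoins the 5' end of HoxA, was at 8.21 and 7.94 CPM against 13.2 and 13.4 CPM (-0.72 ± 0.23, adjusted p = 0.0769).

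Retinoic acid genes included the gene with the largest difference, Aldh1a2, among the 6 lists of Hox regulators, cofactors and linked segment genes. Of 18 tested, 3 were called higher and 1 lower, beside 2.62% and 3.55% of all tested genes, with a median log2 difference of 0.29. Aldh1a2, which makes retinoic acid in the mesoderm, was at 28.9 and 49.9 CPM in FLAG-Lhx1 and at 1.20 and 0.415 CPM in FLAG-Lhx1-mt (log2 difference 5.67 ± 0.38, adjusted p = 8.57e-07 by edgeR). Crabp2, a carrier of retinoic acid to its receptors, rose by 2.17 ± 0.24. Rarb, a receptor of retinoic acid, rose by 2.26 ± 0.37, although 38.4% of the exon bases of Rarb are shared with other genes. Cyp26a1, which breaks retinoic acid down, fell to 54.0 and 43.1 CPM from 111.8 and 164.1 CPM in FLAG-Lhx1-mt, by 1.51 ± 0.19 on the log2 scale. None of these 4 calls was lost under any alternative run.

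Homeobox regulators of the caudal embryo and Hox cofactors were read next, beside 2.62% of all tested genes called higher and 3.55% called lower. Of 6 tested CDX and other caudal homeobox genes, Nkx1-2 (1.58 ± 0.34) and Gbx2 (1.60 ± 0.38) were called higher by edgeR, with a median of 0.75. DESeq2 called neither gene, and both followed Hoxb1 in their order of embryos. That order also held in Hoxa2, Hoxb3os, Aldh1a2, Crabp2, Rarb and Meis2, so it was not particular to these genes. Gbx2, which sets the border of midbrain and hindbrain, was at 27.3 and 39.4 CPM against 17.1 and 4.99 CPM. Other genes share 43.45% of its exon bases, so its value is uncertain. Its log2 difference ran from 0.95 without FLAG-Lhx1-mt replicate 2 to 2.74 without FLAG-Lhx1-mt replicate 1, and that of Nkx1-2 from 0.95 to 2.66. Cdx1 had 18 and 92 counts against 32 and 57, Cdx2 had 12 and 18 against 11 and 17, and Cdx4 had 3 and 38 against 14 and 17, so the groups overlapped in all 3. Of 9 TALE cofactors, which bind DNA together with Hox proteins, Pknox2 (1.53 ± 0.28) and Meis2 (0.80 ± 0.20) were called higher, with a median of 0.31. Meis2 was no longer called once replicate 2 of either group was omitted (0.53 in the case of FLAG-Lhx1-mt) or with offsets for length and GC content.

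**Figure D5:**
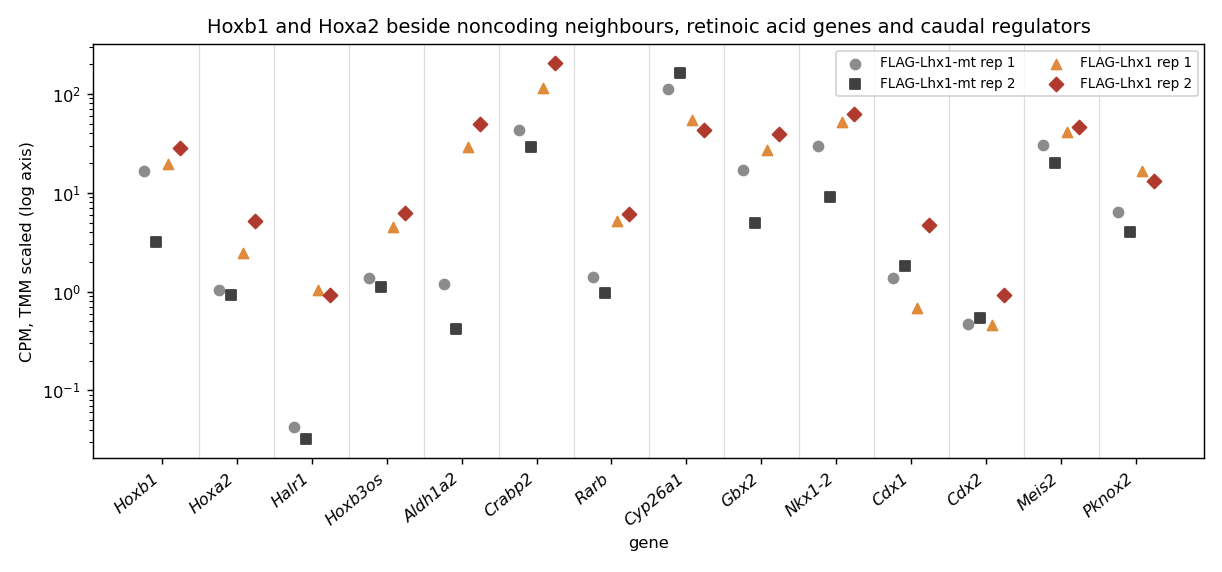
CPM (log axis) of Hoxb1 and Hoxa2 beside 2 noncoding neighbours of the clusters, 4 retinoic acid genes, 4 caudal homeobox genes and 2 TALE cofactors, with 1 symbol per embryo. Aldh1a2 and Halr1 separate the groups most widely, and Cyp26a1 is the only one shown that is lower in FLAG-Lhx1. FLAG-Lhx1-mt replicate 2 is the lowest embryo of every gene shown but Cyp26a1, Cdx1 and Cdx2.

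The remaining 3 lists of that kind were mixed. For comparison, 2.62% of all tested genes were called higher and 3.55% lower. Of 17 genes for caudal WNT, FGF and GDF signals, Sp8 was called higher and Wnt3, Fgf3 and Fgf4 lower, with a median of -0.51. Wnt3, a ligand of the primitive streak, fell to 2.02 and 3.05 CPM from 13.4 and 16.6 CPM. The call of Fgf4 was lost with DESeq2, with limma-voom and without FLAG-Lhx1-mt replicate 1 (-0.74), and that of Sp8 without FLAG-Lhx1-mt replicate 2. Of 15 hindbrain segment genes, Gbx2 and Irx3 were called higher and Fgf3 lower, with a median of 0.69; Irx3 was not called once FLAG-Lhx1 replicate 1 or the second FLAG-Lhx1-mt embryo was omitted. Egr2, the marker of rhombomeres, had 19 and 10 counts against 6 and 7. Of 27 polycomb and trithorax genes, which keep Hox clusters silent or open, Bmi1 (0.70 ± 0.17) and Ezh2 (0.50 ± 0.14) were called higher, with a median of 0.01. Bmi1 was not called in the same 2 omissions, and Ezh2 in none of the 4 omissions, nor with no count filter or with the length and GC offsets.

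Markers of other tissues moved with the groups, and their part in the Hox values was not tested. The counts below stand beside 2.62% of all tested genes called higher and 3.55% called lower in FLAG-Lhx1. Of 16 tested paraxial mesoderm markers 7 were called higher (Foxc1, Foxc2, Pax3 and Aldh1a2 among them) and 1 lower (Cer1), with a median of 1.46. The list summed to 229 to 238 CPM in FLAG-Lhx1 and 185.6 to 186.1 in FLAG-Lhx1-mt. Cer1 made up a large part of these sums, at 93.3 and 62.7 CPM in FLAG-Lhx1 and 117.1 and 140.5 CPM in FLAG-Lhx1-mt. Of 12 markers of lateral plate, cardiac and extraembryonic mesoderm 4 were higher (Prrx1, Vim, Ahnak and Isl1, the last not with DESeq2) and 1 lower (Gata4). Their median was 0.52, and the list summed to 208 to 248 against 124 to 136 CPM. Vim made up a large part of these sums, at 123.5 and 144.1 against 65.2 and 70.0 CPM. Of the 7 not called, Hand1, Hand2, Foxf1, Bmp4 and Tbx20 overlapped between the groups, and Col1a1 and Postn lay higher in FLAG-Lhx1 without overlap. Of 11 anterior neural plate markers 6 were higher (Hesx1, Fezf1, Six3 and Sfrp1 among them), with a median of 1.47 and sums of 330.3 to 352.8 against 129 to 185 CPM. Visceral endoderm had 7 of 16 markers lower (Apoa1, Apoe, Apoa4 and Cubn among them, the last not called without either FLAG-Lhx1 embryo), with a median of -0.61 and sums of 2834 to 3242 against 5003 to 5987 CPM. Caudal epiblast markers, where Hox genes first come on, summed to 784 to 815 against 762 to 901 CPM and overlapped. Sall4 alone was at 416.4 and 400.9 against 433.7 and 407.1 CPM, so these sums say little of the other markers. At an unadjusted edgeR p under 0.05, 2 markers of this list were higher and 5 lower. Of these 15 genes, with a median of -0.04, Nkx1-2 was higher and Pou5f1 and T were lower, and T lost its call when the second FLAG-Lhx1 embryo or the first FLAG-Lhx1-mt embryo was omitted (-0.32 at the smallest), with upper-quartile scaling and with the length and GC offsets. Of 9 blood and endothelium markers none was called by edgeR, DESeq2 or limma-voom, 2 (Itga2b and Pecam1) had an unadjusted edgeR p under 0.05, the median was -0.03 and the sums were 46.2 to 47.1 against 46.9 to 49.5 CPM. No marker in these 6 lists was at 0 in all embryos.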

How the data were processed

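The deposited files hold whole-number read counts per Ensembl gene for each of the 4 embryos, not normalized, made by the authors with STAR and featureCounts of Subread on GRCm38 (mm10), per the submitters' processing notes. Tool versions, annotation release and strand setting: not given in the sources used here. Per the labels' protocols, libraries followed Geo-seq in which cDNA is amplified (10 cycles) before 0.5 ng goes into a Nextera XT library, sequenced as 100 bp pairs. Pre-amplified copies of a molecule therefore count as separate reads.

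Symbols, positions and exon bases came from GENCODE vM21 on GRCm38, which held 37693 (96.2%) of the 39179 IDs. Genes were filtered with filterByExpr (minimum count 10, minimum total 15), scaled by TMM and tested with the quasi-likelihood F test of edgeR 4.0.16 (R 4.3.3) with group as the single term. A gene was called at an adjusted p under 0.05 (Benjamini-Hochberg over all 15822 tested genes). Log2 differences are FLAG-Lhx1 minus FLAG-Lhx1-mt. The p-values set this difference against the spread between embryos of the same group, estimated in part across genes. There were 2 residual degrees of freedom, 13.4 were borrowed across genes, and the biological coefficient of variation was 18.2%. An exact permutation test of 2 against 2 cannot go below 0.333. The procedure was tested on simulated data. DESeq2 1.42.0, limma-voom (limma 3.58.1), other scalings, no filter, a replicate block, offsets for length and GC content, and leaving out each embryo were the alternatives. Deviations of embryos with the same replicate number correlated at 0.0156 across genes, and the labels do not say that a number marks a litter or day.

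Members and the 12 gene lists were chosen with earlier results of these data known. Named genes are the Hox members, up to 4 called genes of each list, ordered by p (where a list had no call, the 2 lowest p), called genes inside or beside the clusters, and Lhx1. Halr1, Hotairm1, Evx1, Egr2, Cer1, Sall4 and the 3 Cdx genes were named after their values were seen. So were Gata4, Hand1, Hand2, Foxf1, Bmp4, Tbx20, Col1a1 and Postn. In addition, 1 Hox member is not reported here, and it was left out of every sum and count over Hox genes.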

Additional observations from a re-analysis of the deposited data

How the results depend on the processing

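The count of all genes called by edgeR, 976, ran from 551 to 1135 when 1 embryo was left out and from 747 to 1447 under the other alternatives. Leaving out FLAG-Lhx1 replicate 1 gave 608 and leaving out FLAG-Lhx1 replicate 2 gave 551. The 1 called Hox gene (Hoxa2) became 2 (Hoxa2 and Hoxb1) with no count filter, with limma-voom and with the replicate block, and ran from 1 to 2 with 1 embryo left out. The 1 called was Hoxb1 when FLAG-Lhx1 replicate 2 was omitted and Hoxd1 when FLAG-Lhx1-mt replicate 2 was omitted. The median log2 difference of the tested Hox genes, 0.49, became 1.46 with limma-voom and ran from -0.0388 to 1.87 with 1 embryo left out; the cause was not tested. The log2 ratio of the Hox sums, 1.06, ran from 0.646 (without FLAG-Lhx1-mt replicate 2) to 1.63 (without FLAG-Lhx1-mt replicate 1). That of the anterior paralogs, 1.29, ran from 0.698 to 2.30 over the same 2 omissions. With the replicate block, edgeR called 1138 genes, Hoxb1 had an adjusted p of 0.00763, and the median of the tested Hox genes was 0.71. No gene named here changed sign while called. Depth limits the 28 untested members, since a few counts per embryo cannot show a difference.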

Other observations

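Hox genes from paralog 3 on had more counts in the replicate 2 embryo of each group in several cases chosen after their values were seen: Hoxa3 (17 and 11 in the replicate 2 embryos, 6 and 3 in the replicate 1 embryos), Hoxd8 (21 and 14, 3 and 0), Hoxa9 (22 and 25, 7 and 3) and Hoxa10 (8 and 16, 3 and 5). Cdx1, a regulator of central Hox genes, was ordered likewise, at 92 and 57 counts in the replicate 2 embryos and 18 and 32 in the replicate 1 embryos. In Hoxd13 (2 and 22, 23 and 40) the replicate 1 embryos were the higher ones in each group. Replicate numbers are not stated to mark a litter or stage, and these orders were not tested.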
